A study of Mus musculus with 2 samples.

Results

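Peaks of the co-activator p300 in the embryonic mouse neocortex were spread thinly over most of the genome, but in a few places they were crowded into stretches that reached from under 100 kb to over 1000 kb. Peaks in such stretches were selected on peak positions alone: a peak was taken as dense when at least 15 other peak midpoints lay within 500 kb of its own midpoint on the same chromosome. The rule took 427 of 6629 peaks (percent of all peaks, 6.44), and these dense peaks formed 26 loci. The material was the dorsal cerebral wall, dissected free of cortical hem, hippocampus and choroid plexus, of Swiss Webster mouse embryos at E14.5, an outbred stock, with formaldehyde fixation as the only treatment. It gave 1 p300 ChIP library and 1 input library. The labels do not say how many embryos were pooled, no data of the input library were used here, and with no replicate the values below have no error between samples. The peak list holds positions only and no read count, so the depth behind a single peak is unknown. No marker level of the tissue could be checked in a list of positions.

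p300 is a histone acetyltransferase that does not recognise a DNA sequence itself. It is brought to chromatin by transcription factors, and its presence far from promoters is widely used to map active enhancers. Genes for developmental regulators are often surrounded by many enhancers, which may lie in the introns of the gene, in the introns of its neighbours or in long stretches without genes. At E14.5 the dorsal cerebral wall holds dividing progenitors in the ventricular and subventricular zones, neurons migrating outward, and the cortical plate in which they settle.

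To show what DNA these loci hold, 200 bases around the peak with the most neighbours in its locus are given for 6 loci. These are the loci with the most dense peaks, with the Zfp608 locus left out, and peaks of other loci can have more neighbours. The deposited list has no summit, so the midpoint of the peak stands in for it. Each run is the forward strand of NCBIM37, the same assembly as mm9, and capitals mark matches on either strand to the recognition motifs listed with the motif results. The highest count, 38 neighbours, was shared by 5 peaks of the Mn1 locus, and the centre of the widest of these lay between genes at chr5:112107293-112107492. The Gse1 sequence was chr8:122788951-122789150, the Auts2 sequence chr5:132300729-132300928 in an intron, and the Nfib sequence chr4:81872423-81872622. The Tle3 sequence was chr9:61225834-61226033, inside the gene, and the Sox4 sequence chr13:28951817-28952016.
Mn1: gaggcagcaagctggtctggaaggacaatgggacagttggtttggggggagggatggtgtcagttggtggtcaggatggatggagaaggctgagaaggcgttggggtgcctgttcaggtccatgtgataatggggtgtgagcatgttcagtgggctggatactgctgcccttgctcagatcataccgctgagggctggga
Gse1: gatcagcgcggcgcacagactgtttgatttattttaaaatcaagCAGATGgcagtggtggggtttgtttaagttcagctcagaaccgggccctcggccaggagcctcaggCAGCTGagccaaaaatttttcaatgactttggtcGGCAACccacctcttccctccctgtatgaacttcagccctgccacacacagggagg
Auts2: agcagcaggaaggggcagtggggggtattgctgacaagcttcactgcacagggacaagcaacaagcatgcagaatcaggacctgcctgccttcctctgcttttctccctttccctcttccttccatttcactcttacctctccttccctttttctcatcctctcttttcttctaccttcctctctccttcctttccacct
Nfib: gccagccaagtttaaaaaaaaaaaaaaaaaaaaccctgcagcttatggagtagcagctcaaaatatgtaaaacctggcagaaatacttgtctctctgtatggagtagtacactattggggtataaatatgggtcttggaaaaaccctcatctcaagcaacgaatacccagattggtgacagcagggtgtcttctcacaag
Tle3: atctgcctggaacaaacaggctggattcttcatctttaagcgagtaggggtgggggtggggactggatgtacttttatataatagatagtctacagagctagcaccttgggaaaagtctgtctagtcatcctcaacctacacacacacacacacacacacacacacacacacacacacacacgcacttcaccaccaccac
Sox4: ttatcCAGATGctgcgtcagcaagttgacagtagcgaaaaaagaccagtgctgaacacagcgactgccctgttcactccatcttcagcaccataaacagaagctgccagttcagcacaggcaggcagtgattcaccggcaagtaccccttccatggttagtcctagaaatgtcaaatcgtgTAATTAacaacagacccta
The Gse1 sequence held a match to CAGATG, a match to CAGCTG and, on the reverse strand, a match to GTTGCC, and the Sox4 sequence held CAGATG and TAATTA. The 4 others held none of the motifs in these 200 bases, and the Tle3 centre ran into a CA repeat.

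The dense peaks were a tail of a continuous distribution. Neighbourhoods usually held few peaks, with a median of 4 neighbours over all peaks and of 18 over the dense peaks. At the edge of the rule, 77 peaks had exactly 15 neighbours and 71 had exactly 14. The former had a median width of 1111 bp and the latter of 1028 bp. Of the dense peaks, 173 had at least 20 neighbours and 64 had at least 30. The last group came from the Mn1 and Gse1 loci alone.

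**Figure D1:**
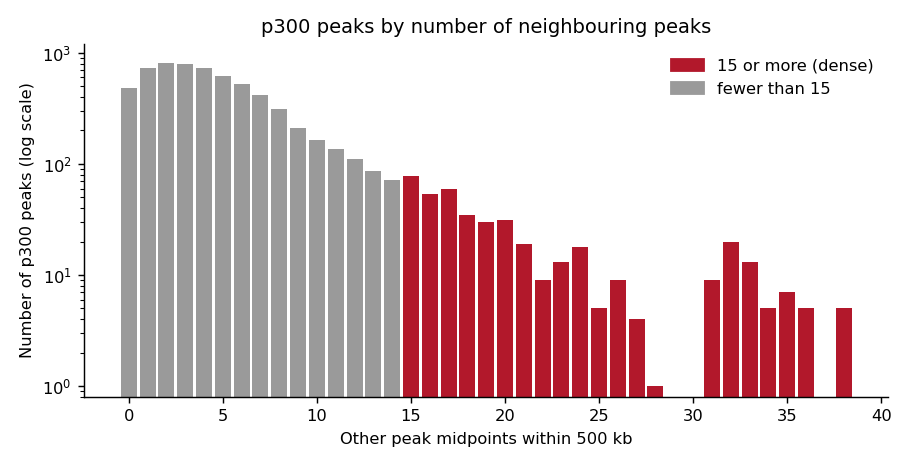
Number of p300 peaks (vertical axis, log scale) by the number of other peak midpoints within 500 kb (horizontal axis). Red bars are the 427 dense peaks and grey bars the other 6202; the counts fall without a step at 15 and end at 38 neighbours.

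The 26 loci lay on 14 of the 20 chromosomes with peaks. Together they spanned 15.2 Mb, 0.596% of the assembled genome, and held 443 peaks, of which 16 did not themselves meet the rule. That is 29.1 peaks per Mb, against 2.59 per Mb over the genome. This contrast is what the rule selects and is given as a description. The 6 largest loci held 196 of the dense peaks (45.9%). Chromosome 5 alone had 5 loci and 106 dense peaks, 24.8% of the dense peaks but 7.75% of all peaks. At the other end, 6 loci held 5 dense peaks or fewer and 14 in all, so ranges over loci below are given for the 20 loci with at least 9 dense peaks. These 20 loci spanned between 214 and 1572 kb, with a median of 727 kb.

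**Figure D2:**
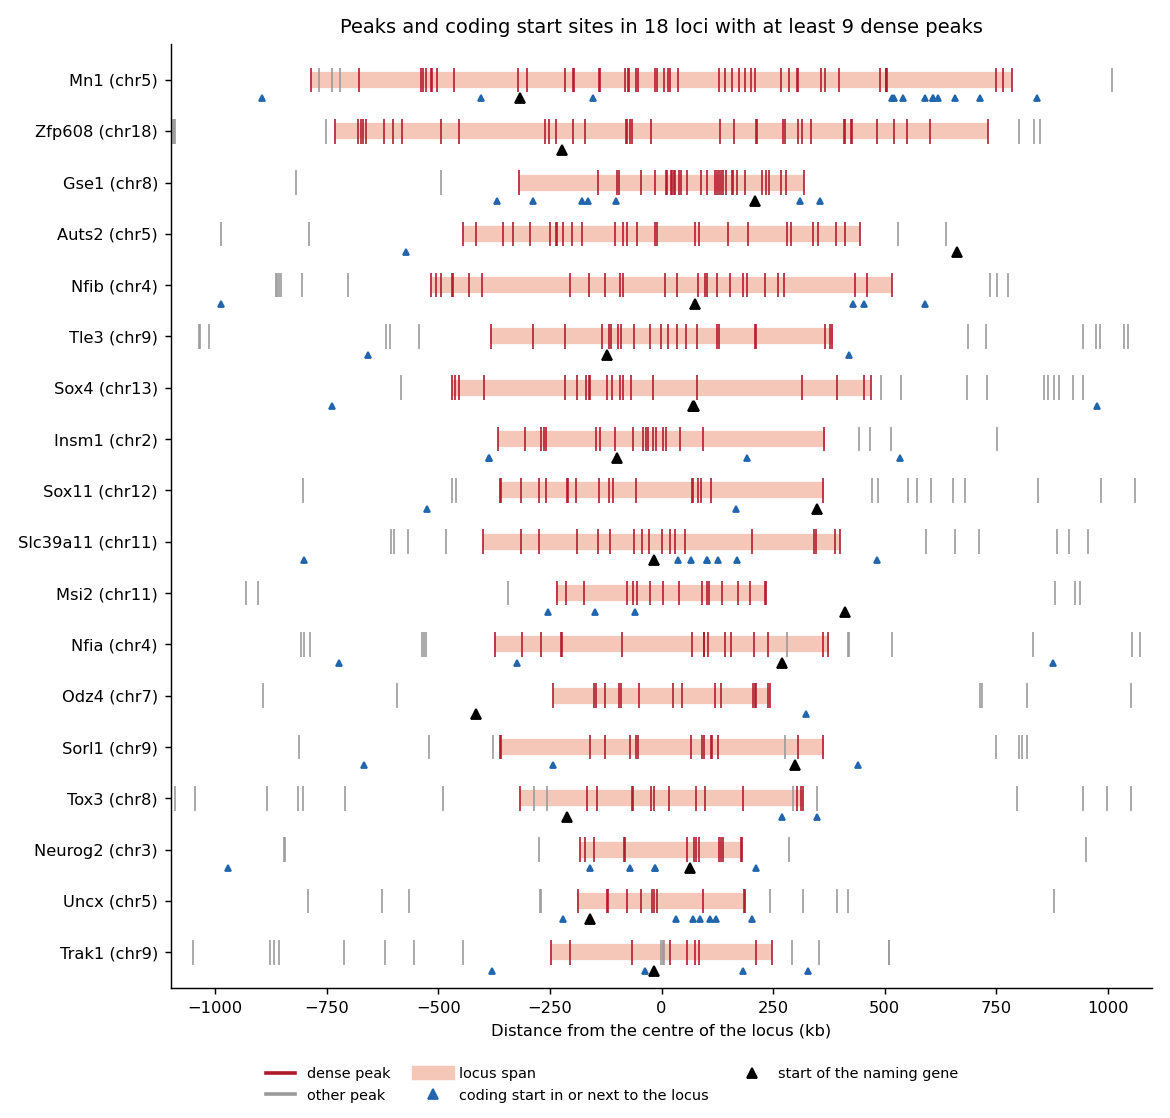
Map of 18 loci with at least 9 dense peaks, each centred on its middle, with distance in kb on the horizontal axis. Red ticks are dense peaks, grey ticks other peaks, triangles coding start sites in or next to the locus (black, the gene that names the locus); the Mn1 locus is the longest at 1572 kb, and the Neurog2 locus spans 364 kb.

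The largest locus surrounded Mn1, which encodes a transcriptional co-regulator. It ran over chr5:111378625-112950413 and held 48 dense peaks among 51 peaks, with up to 9 peaks inside 100 kb. Only 1 dense peak lay in the body of Mn1 (ENSMUSG00000070576), 10 lay upstream of it and 37 downstream, and the peak closest to its start was 3.13 kb away. It held 12 coding starts, the most of the 20 loci. These were Pitpnb, a phosphatidylinositol transfer protein, Mn1, the lens crystallins Cryba4 and Crybb1, the sulphotransferase Tpst2, the splicing factor Tfip11, Hps4, Srrd, Asphd2 and 3 genes with clone or model names. The crystallin genes and those beyond them sat to the right, where 45 of the 48 dense peaks lay on one side of each start. In the stretch downstream of Mn1 lies the long noncoding RNA gene Miat. At the right edge 3 dense peaks fell in Sez6l, which encodes a neuronal membrane protein.

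The second locus was close to a gene desert with a single coding gene, Zfp608, which encodes a zinc finger protein. It ran over chr18:54641964-56104777, 1463 kb with 38 dense peaks, and the next coding starts were 498 kb to the left (Gm5507) and 455 kb to the right (Gramd3). There were 3 dense peaks in the body of Zfp608 (ENSMUSG00000052713), 25 upstream and 10 downstream. The median distance of the dense peaks from its start was 439 kb, and the farthest was 954 kb away. The widest dense peak of all was here, 4444 bp long, 558 kb from the nearest coding start.

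The third locus held Gse1, which encodes a coiled-coil protein found with a histone demethylase corepressor complex. It was the most compact of the 6 largest, with 33 dense peaks in 639 kb (chr8:122484257-123123274), a median gap of 10.1 kb and 12 peaks within 100 kb, the highest of the 20 loci. Relative to Gse1 (ENSMUSG00000031822), 5 dense peaks lay in the body, 27 upstream and 1 downstream. Fam92b, which starts 3.26 kb from a dense peak and reads the other way, had 31 dense peaks upstream, so most of the locus lay between both genes. The other coding starts were Crispld2, the palmitoyltransferase Zdhhc7, 6430548M08Rik and the DNA replication factor Gins2. Only 1 peak outside this locus lay within 500 kb of its edges, so it ended sharply.

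Auts2, a long gene for a nuclear regulator of neuronal development, held the fourth locus inside its own body. Of 28 dense peaks over 890 kb (chr5:131911131-132801203), 27 lay in Auts2 (ENSMUSG00000029673), which is 1106 kb long. The start of the gene was 216 kb beyond the end of the locus, and no coding start lay within it. The dense peaks were therefore in the introns toward the far end of the gene: their median distance from the Auts2 start was 728 kb, and only 10 peaks of any kind lay within 500 kb of that start. The next gene to the left, Wbscr17, a glycosyltransferase, started 127 kb from the locus. Of 10 elements that the authors cloned for reporter assays, 2 lay in this locus. Located by their primers, elt5 was chr5:132277409-132278909 and elt8 chr5:132504759-132506267, each over a dense peak with 26 neighbours and 494 and 512 kb from a coding start. The other 8 elements lay at peaks with 2 to 10 neighbours.

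Of the Nfi family, nuclear factors with roles in glial and neuronal differentiation, Nfib and Nfia each had a dense locus. Relative to the annotated gene bodies the layout differed. At Nfib (ENSMUSG00000008575; chr4:81560019-82593211, 1033 kb) 15 of 27 dense peaks were in the body of the gene, 9 downstream and 3 upstream. At Nfia (ENSMUSG00000028565; chr4:96799131-97547888, 749 kb) 14 of 16 dense peaks were upstream and 2 in the body. The closest dense peak was 7.44 kb from the Nfib start and 32.4 kb from the Nfia start. The Nfib start used for distances, at 82151212, lies well inside its annotated body, which runs to 82351654. Dense peaks in the Nfib body therefore lie on both sides of that start, and the upstream count leaves them out. The Nfib locus also held the starts of Zdhhc21 and of Cer1, a secreted antagonist of Nodal and BMP signals. At Nfia, 8 dense peaks were inside E130114P18Rik, a gene of unknown function that reads away from Nfia. The remaining relatives had fewer peaks within 500 kb of their start, 6 at Nfic and 5 at Nfix, against 21 at Nfib and 17 at Nfia. High counts at genes that start in a locus follow largely from the rule. Contrasts with relatives, here and below, are therefore given as descriptions.

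The SoxC genes Sox4 and Sox11, transcription factors of newly born neurons, each had most of their dense peaks on the downstream side. At Sox4 (chr13:28501829-29442331, 941 kb) 15 of 20 dense peaks were downstream and 5 upstream, of which 4 were in the body of Cdkal1, a tRNA-modifying enzyme. At Sox11 (ENSMUSG00000063632; chr12:27315758-28042778, 727 kb) 17 of 18 dense peaks were downstream and 1 upstream, at a median of 476 kb and up to 711 kb from the start. None of the 18 lay in a coding gene. Their median distance to the nearest coding start of any gene was shorter, 217 kb. The model gene Gm9866 also started in this locus, 55.0 kb from its closest dense peak. The annotation lists Sox4 under 2 identifiers at nearly the same place. The third member, Sox12, had 10 peaks within 500 kb of its start, against 19 for Sox4 and 18 for Sox11.

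Neurogenic factors were the centre of smaller loci. Insm1, a zinc finger factor of basal progenitors and newborn neurons, had 19 dense peaks around it (chr2:145781622-146512721, 731 kb), 8 upstream and 11 downstream of ENSMUSG00000068154. Of these, 10 were in introns of Ralgapa2, a regulator of Ral GTPases, and none in Insm1 itself, a gene of 3.10 kb. A further 7 were in 4930529M08Rik, a coding gene with a clone name, so 17 of the 19 lay in a coding gene. Neurog2, the proneural bHLH factor that starts neurogenesis in the dorsal telencephalon, had 14 dense peaks in 364 kb (chr3:127089531-127453738), 6 upstream and 8 downstream of ENSMUSG00000027967. Here the bodies of neighbours held 7 of them, 5 in the kinase gene Alpk1 and 2 in the ankyrin gene Ank2, and Larp7 with its resident microRNA cluster also lay in the span. These 14 peaks were close to genes, at a median of 16.3 kb from a coding start, the lowest of the 20 loci. Its relative Neurog1 had 7 peaks within 500 kb, against 16 for Neurog2.

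The 200 bases at the centre of 1 peak in each of 2 smaller loci are also shown, and they were chosen for their motifs after the matches had been seen. The Neurog2 sequence held no more kinds of motif than the Sox4 sequence above, and the Uncx sequence no more than the Gse1 sequence. The Neurog2 sequence, chr3:127408764-127408963, lay in an intron of Alpk1 and held TAATTA and a reverse CAGATG. The Uncx sequence, chr5:140170979-140171178, held TAATTA once, then CAGCTG at 2 places and a reverse TGACTCA. Capitals again mark the matches on the forward strand of mm9.
Neurog2: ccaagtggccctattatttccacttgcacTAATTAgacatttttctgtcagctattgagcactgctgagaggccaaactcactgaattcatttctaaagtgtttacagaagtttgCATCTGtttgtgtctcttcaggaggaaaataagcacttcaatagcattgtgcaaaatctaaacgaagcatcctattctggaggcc
Uncx: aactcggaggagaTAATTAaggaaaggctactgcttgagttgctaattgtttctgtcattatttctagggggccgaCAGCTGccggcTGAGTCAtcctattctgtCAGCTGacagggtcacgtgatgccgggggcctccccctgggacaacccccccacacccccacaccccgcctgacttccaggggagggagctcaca

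Corepressor genes were also found at the loci. Tle3, a Groucho family corepressor, had 22 dense peaks in 767 kb (chr9:60959055-61726430), 4 in ENSMUSG00000032280, 4 upstream and 14 downstream, the nearest 4.74 kb from its start. Of its family, Tle1 had 8, Tle2 had 6 and Tle4 had 10 peaks within 500 kb, against 24 for Tle3. Runx1t1, also a corepressor, started 34.2 kb beyond a small locus of 5 dense peaks.

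In other loci the dense peaks filled long genes. All 16 dense peaks of the Odz4 locus (chr7:103532311-104018572) were inside Odz4, a teneurin of 740 kb that takes part in cell adhesion and axon guidance. Msi2, an RNA-binding protein of neural progenitors, held 10 of 17 dense peaks (chr11:87931967-88402750), with its start 177 kb beyond the locus. In the Slc39a11 locus (chr11:113043699-113844164), 12 of 18 dense peaks were in that zinc transporter gene and 5 in the adhesion gene Sdk2. Sox9, a progenitor transcription factor, started 400.2 kb to the left of this locus and had 6 peaks within 500 kb.

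The remaining loci of this size mixed both layouts. The Sorl1 locus (chr9:41269541-41996170) had 15 dense peaks, none in a coding gene and 13 downstream of Sorl1, which encodes a sorting receptor. The Tox3 locus (chr8:92765251-93401277) had 13 of 14 dense peaks upstream of Tox3, an HMG-box factor, and 3 of these were in the chromatin remodeller gene Chd9. Tox2 had 8 and Tox had 2 peaks within 500 kb, against 15 for Tox3. The Uncx locus (chr5:139991842-140369231) had 11 dense peaks, 8 of them downstream of this homeobox gene, 2 in its annotated body and 1 upstream, and 1 of the downstream peaks was in Mafk. The Trak1 locus (chr9:120976066-121470336) had 9 dense peaks, 4 in Trak1, an adaptor for mitochondrial transport, and 3 in Ulk4, and it also held the neuropeptide gene Cck. Ctnnb1, which encodes beta-catenin, started 134 kb to its left.

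Of the 6 smallest loci, Runx1t1 had 5 dense peaks, and the others had between 1 and 3. Of these, 3 dense peaks lay on chromosome 13 between Rnf144b and 4931429P17Rik, 2 at Zfand3 and 2 at Ntng2, a netrin-related guidance protein. A single dense peak stood 103 kb from the start of Epha3, an ephrin receptor, and another 213 kb from Gk2. These small loci had 12 to 15 further peaks within 500 kb of their edges, so they were the centres of wider groups whose other members missed the minimum.

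Whether dense peaks lay in genes more often than the rest turned on how genes were counted. The midpoint was in a protein-coding gene in 207 of 427 dense peaks (48.5%), with a Clopper-Pearson 95% interval, which is exact, of 43.6 to 53.3, and in 42.3% of the other peaks and 42.7% of all peaks. With all annotated genes, coding or not, the share was 55.0% of dense peaks (50.2 to 59.8) and 44.9% of other peaks. Without coding genes that carry only model or clone names, the share was 38.4% of dense and 40.3% of other peaks, so the direction turned. A single model gene, Gm20388, is annotated over 4435 kb and covers all 33 dense peaks of the Gse1 locus. Intervals here and below cover counting error only, and since peaks of a locus are not independent they are too narrow; no test was run on these shares or medians. Among the 20 loci the share in coding genes ran from 0% at Sox11 and Sorl1 to 100%, a value reached at Gse1 and Odz4. An annotated exon was touched by 13 dense peaks (3.04%, 1.63 to 5.15), against 2.16% of all peaks, although the authors had removed peaks over exons.

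**Figure D3:**
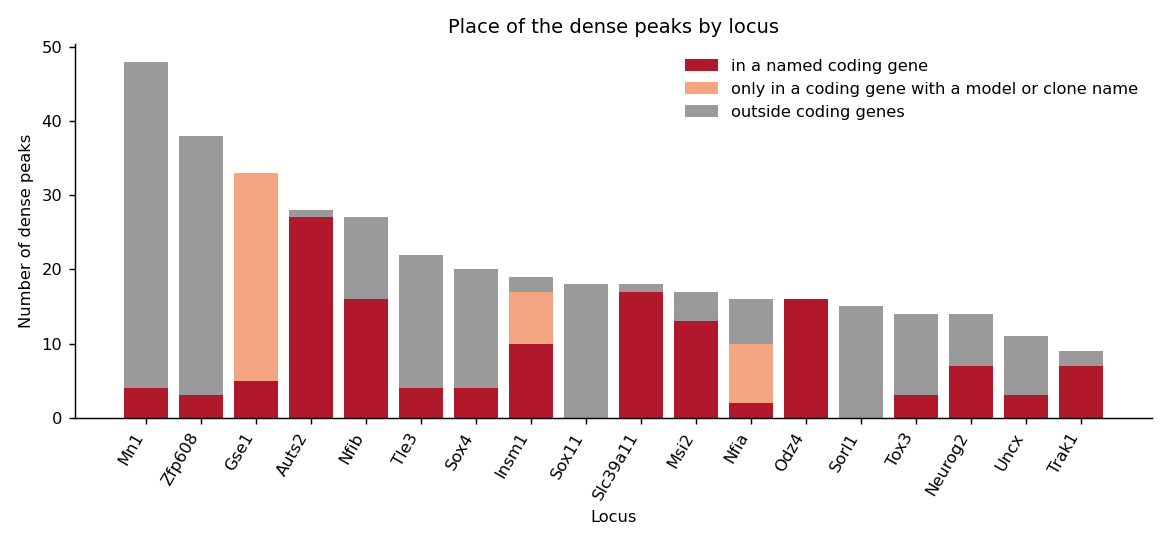
Number of dense peaks (vertical axis) in each of 18 loci (horizontal axis), stacked by place. All dense peaks of Odz4 (16) lie in a named coding gene, none of Sox11 (18) or Sorl1 (15) do, and at Gse1 28 of 33 lie only in a gene with a model name.

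They lay farther from coding starts than other peaks. The median distance was 123 kb (95% interval 109 to 145 kb), against 80.6 kb (76.9 to 83.8 kb) for the other peaks, and 14 of the 20 loci had a median above that of all peaks. More than 50 kb separated 318 dense peaks (74.5%, 70.1 to 78.5) from any coding start, against 63.0% of the others and 63.7% of all peaks. Coding starts were also thin in the loci, with 4.59 per Mb against 8.75 per Mb over the assembled genome. Among the loci with at least 9 dense peaks, 3 had no coding start, among them Auts2 and Odz4. With the start of every annotated transcript in place of 1 start per coding gene, 42.4% of dense peaks (37.7 to 47.2) were over 50 kb away. This interval covers the 38.8% of other peaks, and 11 of the 20 loci were above and 9 below the share of all peaks. Whether the distance follows from the long gene-free stretches themselves was not tested.

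Within the loci, the gaps between neighbouring peaks varied widely, and whether the peaks formed smaller groups was not tested. The median gap between neighbouring midpoints was 21.3 kb (quartiles 8.38 and 44.8 kb), the shortest was 1.22 kb and the longest 271 kb, the latter at Insm1. Of 417 gaps, 122 were under 10 kb (29.3%) and 31 were over 100 kb. Over all neighbouring peaks the median gap was 128 kb and 11.5% were under 10 kb. An edge of the next peak was less than 5 kb away for 144 dense peaks (33.7%), against 14.7% of all peaks. Among them were 21 of 48 at Mn1, 17 of 33 at Gse1 and 10 of 14 at Neurog2. At Trak1 none was so close. Shorter gaps follow from the rule and are given as a description.

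The dense peaks were wider than the others. Width was not used by the rule, but it was called in the same library. The median was 1174 bp (95% interval 1120 to 1222 bp) against 1011 bp (1004 to 1018 bp), and 19 of the 20 loci had a median above the 1017 bp of all peaks. The exception was Msi2 at 1015 bp, and the highest median was 1482.5 bp at Neurog2. The widest peaks of all (665 peaks of at least 1643 bp) included 73 dense peaks (17.1%, 13.6 to 21.0), against 9.55% of the others. The difference was as large for peaks at least 5 kb from any other, with 1174 bp for 283 dense and 1002 bp for 5371 other peaks. Along the number of neighbours, median width rose from 976 bp at 0 to 2 neighbours to 1066 bp at 10 to 14, 1146 bp at 15 to 19 and 1266 bp at 20 to 29. In the 64 peaks with 30 or more it was 1139 bp, with an interval of 987 to 1267 bp that covers the medians of both bins before it. Peak width depends on the signal and the caller, and signal was not available here, so the part of signal height was not tested.

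**Figure D4:**
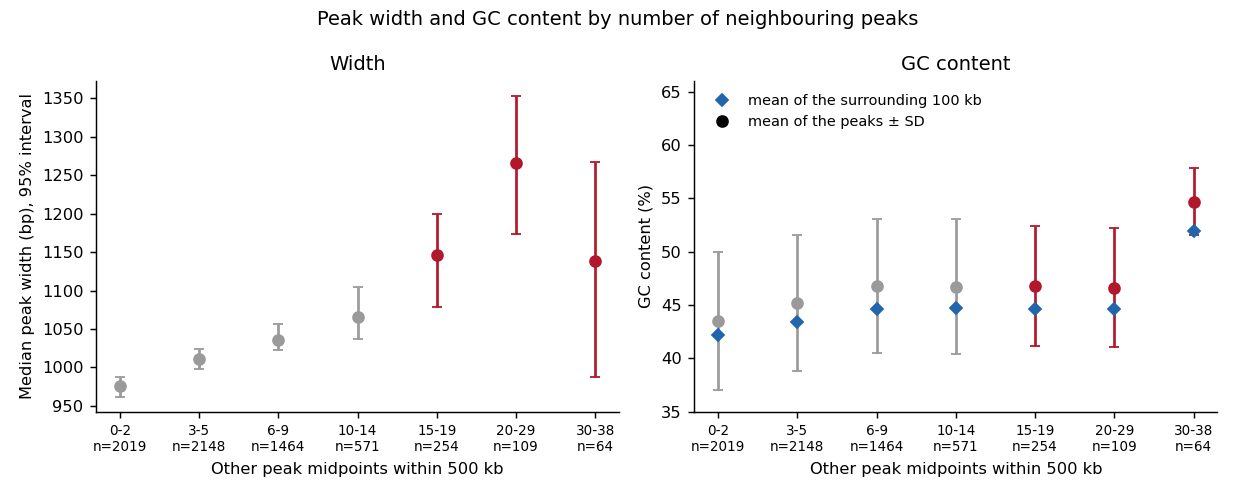
Left, median peak width in bp with its 95% interval; right, mean GC content of the peaks with SD (circles) and mean GC content of the surrounding 100 kb (diamonds), by number of neighbours (horizontal axis, with the number of peaks). Red marks the dense peaks; width rises from 976 to 1266 bp and is 1139 bp in the last bin, and GC lies between 43.5% and 46.8% until the last bin, which comes from 2 loci and reaches 54.7%.

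GC content of the dense peaks was higher on average but followed the region in which a locus lay. The mean over dense peaks was 47.9% ± 6.01 (SD over 427 peaks), against 45.2% ± 6.51 for the others. The surrounding 100 kb differed in the same way, 45.7% ± 4.53 against 43.4% ± 4.28, and the excess of the peak over its surroundings was 2.21 ± 3.27 against 1.73 ± 3.99 percentage points. These differences are all under 1 SD. Locus means ran from 39.7% to 56.8%, with 41.9% at Zfp608, 54.9% at Uncx and the highest at Gse1, and 12 of 20 were above the mean of all peaks. In each of the 20 loci the peaks were richer in GC than the DNA between them, by 1.09 points at Zfp608 up to 5.14 points at Sorl1. Dense peaks with 15 to 19 and with 20 to 29 neighbours had means of 46.8% and 46.6%, close to the 46.7% at 10 to 14 neighbours. The rise to 54.7% at 30 or more came from the GC-rich Mn1 and Gse1 loci.

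Recognition motifs of 10 kinds were searched on both strands in the 500 bases around each midpoint. The bHLH E-boxes CAGATG and CAGCTG are bound by proneural and related factors. CAGATG was found in 57.6% of dense peaks and 57.4% of all peaks. CAGCTG was found in 42.9% (38.1 to 47.7) and 39.7%. ACAAAG, part of the Sox site, was in 40.3% of dense and 40.8% of all peaks, and GTTGCC, a half-site of Rfx factors, in 18.5% and 19.9%. The octamer ATGCAAAT of POU factors was in 6.32% and 7.6%, with 9 of the 27 dense peaks that held it at Mn1. The T-box letters TCACACCT were in 3.04% and 3.03%. TGACTCA of AP-1 was in 6.79% and 8.28%. The full Nfi pair, TTGGC and GCCAA with 5 bases between, was in 2 dense peaks, 1 at Tle3 and 1 at Nfia (0.468%), against 0.272% of all peaks. For these 8 motifs the interval of the dense share covered the share of all peaks.

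In these 500 bases the AT-rich and the GC-rich motif had a share over all peaks outside the interval of the dense share, in opposite directions. Over whole peaks, which are longer in the dense set, CAGCTG did so too, in 63.7% of dense peaks (58.9 to 68.3) against 56.3% of all peaks and above that share in 17 of 20 loci. TAATTA, the core of homeodomain sites, was in 26.2% of dense peaks (22.1 to 30.7) against 31.3% of all peaks. CCGCCC, the GC box of Sp and Klf factors, was in 17.3% (13.9 to 21.3) against 12.1%. Both varied with GC content. With the peaks split at the median GC around the midpoint, TAATTA was in 42.8% of dense and 43.6% of other peaks below it, and in 17.1% and 19.3% above it. For CCGCCC the values below it were 5.26% and 3.83%. Above it the interval of the dense share, 19.1 to 29.5, covered the share of the others. The loci differed widely. TAATTA was in 7 of 14 dense peaks at Neurog2 and 1 of 15 at Sorl1, while CCGCCC was in 15 of 33 at Gse1, 5 of 11 at Uncx, and 0 of 28 at Auts2 and 0 of 18 at Sox11. CAGCTG was in 14 of 18 dense peaks at Slc39a11. Below the median GC, TGACTCA was in 1.32% of dense peaks (0.160 to 4.67) against 8.81% of others, but above it in 9.82% against 7.95%. A match is a run of letters and does not show that a factor binds there.

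**Figure D5:**
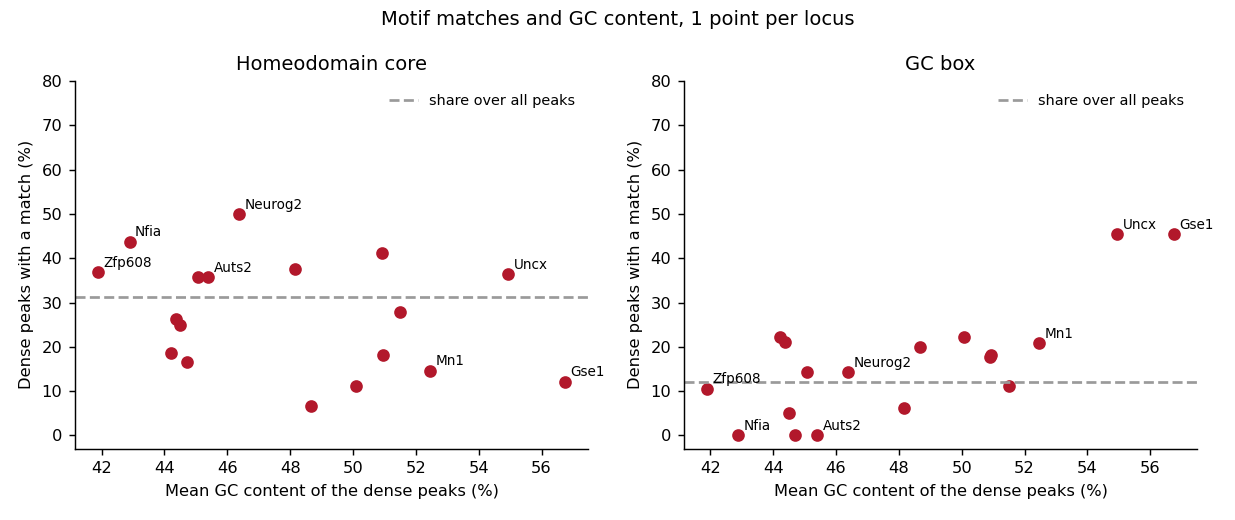
Share of dense peaks with TAATTA (left) and CCGCCC (right) in each of 18 loci (vertical axis, percent) against the mean GC content of its dense peaks (horizontal axis, percent). The dashed line is the share over all peaks, 31.3% and 12.1%; Neurog2 has TAATTA in 50% of its dense peaks, and Gse1, at the highest GC, has CCGCCC in 45.5%.

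The peaks of a locus were mostly not copies of each other. Alignments of at least 100 bases joined 35 pairs of dense peaks, and 2 of these pairs lay in the same locus, 1 at Msi2 and 1 at Tle3. The share of all possible pairs that lie in 1 locus was not counted. Whether 2 is few or many for loci of this size was therefore not tested. Over all peaks, 57 dense peaks (13.3%) and 635 others (10.2%) aligned to some other peak in this way.

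Of 6 gene lists, those of cortical transcription regulators and of chromatin regulators had members that started in a locus. In all, 70 of 22367 protein-coding genes started in a locus (percent of all coding genes, 0.313). Of 99 cortical transcription regulators with a matching symbol, 11 did (11.1%). These were Mn1, Gse1, Zfp608, Nfib, Tle3, Sox4, Insm1, Sox11, Nfia, Neurog2 and Tox3. The list was drawn up with the dense loci already known and is not independent: without the genes that the study names for their many peaks, 4 of 91 remained (4.40%), Neurog2, Insm1, Nfia and Tox3. That is below the share of chromatin regulators, of which 1 of 20 started in a locus (5%), so the order of these lists turned on how the first was drawn up. The other lists had no such gene, with 0 of 66 guidance and adhesion genes (Ntng2 was not on that list), 0 of 23 subpallial and interneuron genes, 0 of 14 G1 cell cycle genes and 0 of 81 ribosomal protein genes. The median number of peaks within 500 kb of the start was 6 for the cortical regulators, 5 for G1 genes, 4 for subpallial genes, 3.5 for chromatin regulators, 3 for guidance genes, 2 for ribosomal protein genes and 1 for all coding genes.

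Many regulators of the same tissue did not lie in a dense locus. Pax6, the master regulator of dorsal progenitors, had 12 peaks within 500 kb, and Sox2, a progenitor factor, had 13. Eomes, which marks intermediate progenitors, and Tbr1, a deep-layer neuron factor, had 7 each, and Bcl11a had 2. By the same count Mn1 had 34, Gse1 32, Zfp608 and Tle3 24 each, Nfib 21, Sox4 and Insm1 19 each, Sox11 18, Nfia 17, Neurog2 16 and Tox3 15. Such counts were not confined to cortical regulators. Epha3, on the guidance list, had 16 although its start lay outside a locus. Of all 22367 coding genes, 129 had at least 15. The count says how many peaks lie near a start, and whether they act on that gene was not tested. It is close to the rule that defined the loci, so the contrast between these groups of genes is a description.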

How the data were processed

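The authors made 1 p300 ChIP-seq library (antibody C-20) and 1 input library from the dorsal cerebral wall at E14.5. Per the study's methods, ELAND aligned the reads and MACS found enrichment over the input. The version of MACS was 1.4 according to the processing notes of the submitters. The authors then dropped peaks over exons, within 2.5 kb of a start site or in non-unique sequence. The deposited file gives peak positions on mm9 only, with no score, signal or read count. Depth per peak is therefore unknown.

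Neighbours were other peak midpoints within 500 kb, the minimum was 15, and dense peaks with neighbouring midpoints at most 500 kb apart formed a locus. Positions were read against NCBIM37 (mm9) and GENCODE vM1 (37273 genes, 22367 protein-coding), with 1 start per gene, taken from the transcript whose coding sequence was longest. For each locus the genes named were the coding gene holding most dense midpoints, genes starting within it and the nearest start on each side. Motifs were counted in the 500 bases around the midpoint. Sequences were aligned with blastn 2.17.0 at an E-value of 1e-05. Analysis used Python 3.11.15, numpy 2.4.6, scipy 1.17.1, pandas 2.3.3, pysam 0.24.0 and matplotlib 3.10.9. Shares carry exact 95% intervals and medians order-statistic intervals; no test was run, because there is 1 library and the members were chosen on the positions. Functions were tested on simulated data with known answers. The members and the gene lists were chosen with earlier results of these data known. Alternatives changed the minimum, the window, the joining of close peaks, the gene set and the searched sequence. The input library was not analysed here, and 2 of the loci and some genes are not reported here.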

Additional observations from a re-analysis of the deposited data

How the results depend on the processing

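The number of dense peaks and loci followed the rule closely. A minimum of 10 neighbours gave 998 peaks in 87 loci and a minimum of 20 gave 173 in 9. Counting within 250 kb gave 111 in 10, joining peaks under 5 kb apart gave 222 in 14, and keeping only the wider peaks, split at the median width, gave 98 in 6. The median width was 1108.5 bp at a minimum of 10 and 1234 bp at 20, above the other peaks in each. After joining it was 1340 bp, also above the others, but a joined width includes the sequence between the joined peaks. Since 33.7% of dense and 13.4% of other peaks lay under 5 kb from the next, the joined widths are not a like comparison. Mean GC was 47.2% at 10, 49.6% at 20, 47.3% without the Mn1 locus and 49.0% in the 500 bases around the midpoint. The share in coding genes was 43.3% at 10 and 53.6% without the Mn1 locus. It was 55.0% with all annotated genes, against 44.9% of other peaks, and 38.4% without model or clone names, the last below that of other peaks. The median distance was 36.3 kb to the start of any transcript and 150.9 kb without model names. From the start of any transcript, 42.4% of dense and 38.8% of other peaks were over 50 kb away. At a minimum of 20, TAATTA was in 20.2% and CCGCCC in 22.5%. After joining, CAGATG was in 50.9%. Over whole peaks, which are longer in the dense set, the shares were 78.0% for CAGATG, 63.7% for CAGCTG, 41.0% for TAATTA, 37.7% for GTTGCC, 68.9% for ACAAAG, 11.9% for ATGCAAAT, 6.09% for TCACACCT, 16.6% for TGACTCA and 28.1% for CCGCCC. At a minimum of 10, 15 of 99 cortical regulators, 3 of 66 guidance genes and 2 of 23 subpallial genes started in a locus. So did 1 of 14 G1 genes, 1 of 20 chromatin regulators and 1 of 81 ribosomal protein genes. The share of all coding genes was not counted at this minimum, so these counts have no background beside them. The sets without model names, of peaks 5 kb apart, split by GC and against the surrounding 100 kb were chosen after seeing the data. Of the values under these alternatives, 40 moved outside the interval, spread or count range of the reported value. The other 63 stayed within it, among them the counts of cortical and chromatin regulators.

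No paired analysis was possible because the p300 and input groups have 1 library each and share a single replicate number, and no values of the input were used here. The list holds no signal, and the height and the call of a peak were not varied.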

Other observations

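Below the minimum of 15 neighbours there were 61 further stretches whose most crowded peak had 10 to 14 neighbours, with 408 peaks in all, and 5 of them reached 14. They were found by lowering the minimum after the dense loci were known, and they are given as values only. The largest held 15 peaks over 690 kb around Rybp, a Polycomb-associated protein. A stretch at Foxo6, a forkhead factor, had 14 peaks, and one at Mycn, a proto-oncogene of progenitors, had 13, none of them in a coding gene. The stretch at Neurod6, a neuronal bHLH factor, also had 13.

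None of the 66 guidance and adhesion genes on the list counted in the report started in a dense locus. At a minimum of 10, 3 of them started in a locus, but the share of all coding genes was not counted beside them. Robo2, a receptor for Slit proteins, held 10 of the 12 peaks of its stretch, and Robo1 held 6 of 11. Among other long genes, Npas3, a bHLH-PAS factor, held 11 of 11 peaks, Arhgap15 9 of 10 and Foxn3 6 of 12. Sox2 had 12 peaks in its stretch, none in a coding gene, and the stretch at Pax6 had 4 such peaks, 3 of them in Elp4.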
